A study of Homo sapiens with 9 samples.

Results

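The dual-specificity phosphatases of MAP kinases and the Sprouty and Spred proteins are negative feedback regulators of signalling through RAS and the ERK, p38 and JNK kinases. The genes DUSP1, DUSP4, DUSP5, DUSP6, DUSP10, SPRY1, SPRY2, SPRY4, SPRED1 and SPRED2 were followed on all arrays of the series. The 10 genes were taken by name, with earlier results of these data known, and are read by 22 of 54675 probe sets. Their counts, set beside the shares of all genes, are therefore a description. The 10 genes stand for 10 of 19775 genes on the array, and all 10 passed the filter on dim genes, which left 13799. The cells were SK-N-AS, an established line from a human neuroblastoma, and RNA was read on 9 Affymetrix expression arrays. One series received the RE-EX1 construct, which overexpresses full-length NRSF, one the HZ4 construct, which overexpresses a truncated variant, and one was untreated, and each has 1 array at 0, 24 and 48 h. NRSF is the product of REST and represses neuronal genes. The 0 h arrays of the construct series are labelled as baseline controls of those constructs. Triplicates and several batches are mentioned for the series as a whole, yet no array carries a replicate or batch label and pooling of cultures is not stated. The p-values therefore reflect the spread among these arrays alone, which may be technical. In bulk RNA, fewer cells that use a gene and less RNA of it per cell cannot be told apart.

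MAP kinases are switched off when a phosphatase removes the phosphates from their activation loop. DUSP1, DUSP4 and DUSP5 act in the nucleus, DUSP6 holds ERK in the cytoplasm and acts on it there, and DUSP10 prefers p38 and JNK. Sprouty proteins interrupt the path from receptor tyrosine kinases to RAS, and Spred proteins bring neurofibromin, which turns RAS off, to the membrane. Several of these genes are themselves switched on by the kinases that their products restrain, which closes the loop.

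Because several members moved together at 24 h, 4 promoter windows of 250 bases before the start of transcription are shown, 3 of genes that rose at 24 h (DUSP1, DUSP10 and SPRY4) and 1 of a gene that fell (SPRY1). They are RefSeq sequences of GRCh38.p14, written 5′ to 3′ on the gene's strand: DUSP1 at chr5:172771196-172771445 and SPRY4 at chr5:142324248-142324497 on the minus strand, DUSP10 at chr1:221742090-221742339 on the minus strand, and SPRY1 at chr4:123396545-123396794 on the plus strand. For DUSP10 and SPRY1, which have several listed starts, the most upstream one is shown. Capitals mark TGACG, the core of the cyclic AMP response element (CRE), read on either strand.
DUSP1: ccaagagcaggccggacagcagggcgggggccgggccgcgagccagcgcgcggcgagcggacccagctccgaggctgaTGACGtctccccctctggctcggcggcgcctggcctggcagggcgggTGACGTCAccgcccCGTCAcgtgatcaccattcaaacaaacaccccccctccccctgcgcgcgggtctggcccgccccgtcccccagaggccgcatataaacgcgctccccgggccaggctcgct
DUSP10: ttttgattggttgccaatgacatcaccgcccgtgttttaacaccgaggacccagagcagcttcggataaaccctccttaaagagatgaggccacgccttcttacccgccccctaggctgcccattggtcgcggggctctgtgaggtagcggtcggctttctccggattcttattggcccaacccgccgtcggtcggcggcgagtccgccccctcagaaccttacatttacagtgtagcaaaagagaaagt
SPRY4: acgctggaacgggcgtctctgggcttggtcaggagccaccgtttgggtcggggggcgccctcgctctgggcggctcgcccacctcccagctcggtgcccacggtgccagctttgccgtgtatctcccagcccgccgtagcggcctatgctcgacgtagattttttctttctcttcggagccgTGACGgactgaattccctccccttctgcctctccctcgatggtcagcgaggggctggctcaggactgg
SPRY1: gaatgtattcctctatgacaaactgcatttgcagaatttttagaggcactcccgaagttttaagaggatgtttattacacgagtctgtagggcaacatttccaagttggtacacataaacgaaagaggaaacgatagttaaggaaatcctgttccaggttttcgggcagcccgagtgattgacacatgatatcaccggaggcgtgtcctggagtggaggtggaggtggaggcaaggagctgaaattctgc
The DUSP1 window held 4 such cores, the first bases of which, as printed, lie 172, 125, 122 and 111 bases before the start. Those at 125 and 122 overlap and make up 1 full palindrome, TGACGTCA. The SPRY4 window held 1 core, 68 bases before the start, and the DUSP10 and SPRY1 windows held none. Searches covered both strands. Of 35116 promoter windows of this length, 21.2% held a core and 1.65% the full palindrome, which contains the core. Among 13 listed starts of 8 members, 3 windows held a core and 1 the palindrome. The AP-1 motif TGANTCA and the CArG box of serum response factor were in 0 of these 13 windows, against 6.57% and 1.16% of all windows. DUSP4 and DUSP5 had no entry. A match is a run of letters and does not show that a factor binds there.

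Signals are linear intensities that the authors had scaled to 1 target per array. Low values were set to a floor of 8.27, which took in 21.9% to 26.9% of the values of an array, and median signals ranged over 30.9 to 42.7. The ACTB controls, a sign of RNA integrity, had 3'-end signals 2.25 to 4.19 times their 5'-end signals. The truncated 24 h array stood apart, with a median correlation across genes of 0.909 with the other arrays against 0.922 to 0.931 for the rest, so counts of called genes over time are also given without it. Its dimmest 20% of tested genes stood 0.52 log2 above their mean over the arrays, against −0.06 to 0.32 on the others, while the lowest signal of any member's brightest probe set was 208. The line was labelled neuroblastoma: 8 of 8 mesenchymal neuroblastoma markers passed the filter, VIM and CD44 among them, and 5 of 7 sympathoadrenal markers, GATA3 and ISL1 among them, while DBH and TH did not pass and had 5 and 2 arrays at the floor. Of markers of other cell types, KRT18 and KRT8 (2 of 5 epithelial), PTPRC (1 of 4 blood), PECAM1 (1 of 4 endothelial) and PMEL (1 of 4 Schwann and melanocyte) passed it, and EPCAM, CDH1, CDH5 and CD3E did not.

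At 24 h over 0 h, 5 of the 10 feedback genes rose and 1 fell. The phosphatase genes DUSP1 and DUSP5 rose most, by 6.74-fold and 5.53-fold, followed by DUSP10 at 2.19-fold, SPRY4 at 1.96-fold and SPRED1 at 1.63-fold. SPRY1 fell to 0.498 of its 0 h level. DUSP4, DUSP6, SPRY2 and SPRED2 did not pass the test. Calls rest on limma's moderated test of time across the 3 series (n = 3 arrays per time), with Benjamini-Hochberg adjusted p under 0.05 over all 13799 genes, of which 8.04% were called up, 8.2% down and 16.2% in either direction. The members' median change was 0.56 log2, against −0.03 for all genes tested. In 4 members all 24 h arrays lay above all 0 h arrays and in 2 all lay below, against 14.3% and 15.4% of all genes. At an unadjusted p under 0.05 there were 9 members, against 28.1% of all genes. The count was also 5 up and 1 down without the truncated 24 h array. Markers moved between these times too, and of 8 mesenchymal ones 2 rose and 3 fell. The risers were SNAI2 at 1.26 ± 0.15 log2 and FOSL2 at 0.70 ± 0.17. Those that fell were TGFBI at −1.89 ± 0.17, FN1 at −1.43 ± 0.16 and PRRX1 at −1.20 ± 0.15 log2. The summed signal of the 8 was 19123 to 21717 at 24 h, against 24472 to 27998 at 0 h. The largest part of that sum was VIM, which was not called (−0.27 ± 0.15, limma adjusted p = 0.26). Of 5 kept sympathoadrenal markers DDC fell. The kept markers of other cell types had 0 calls. The part of these changes in the members' values was not tested. The plot of signals by array shows each member.

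**Figure D1:**
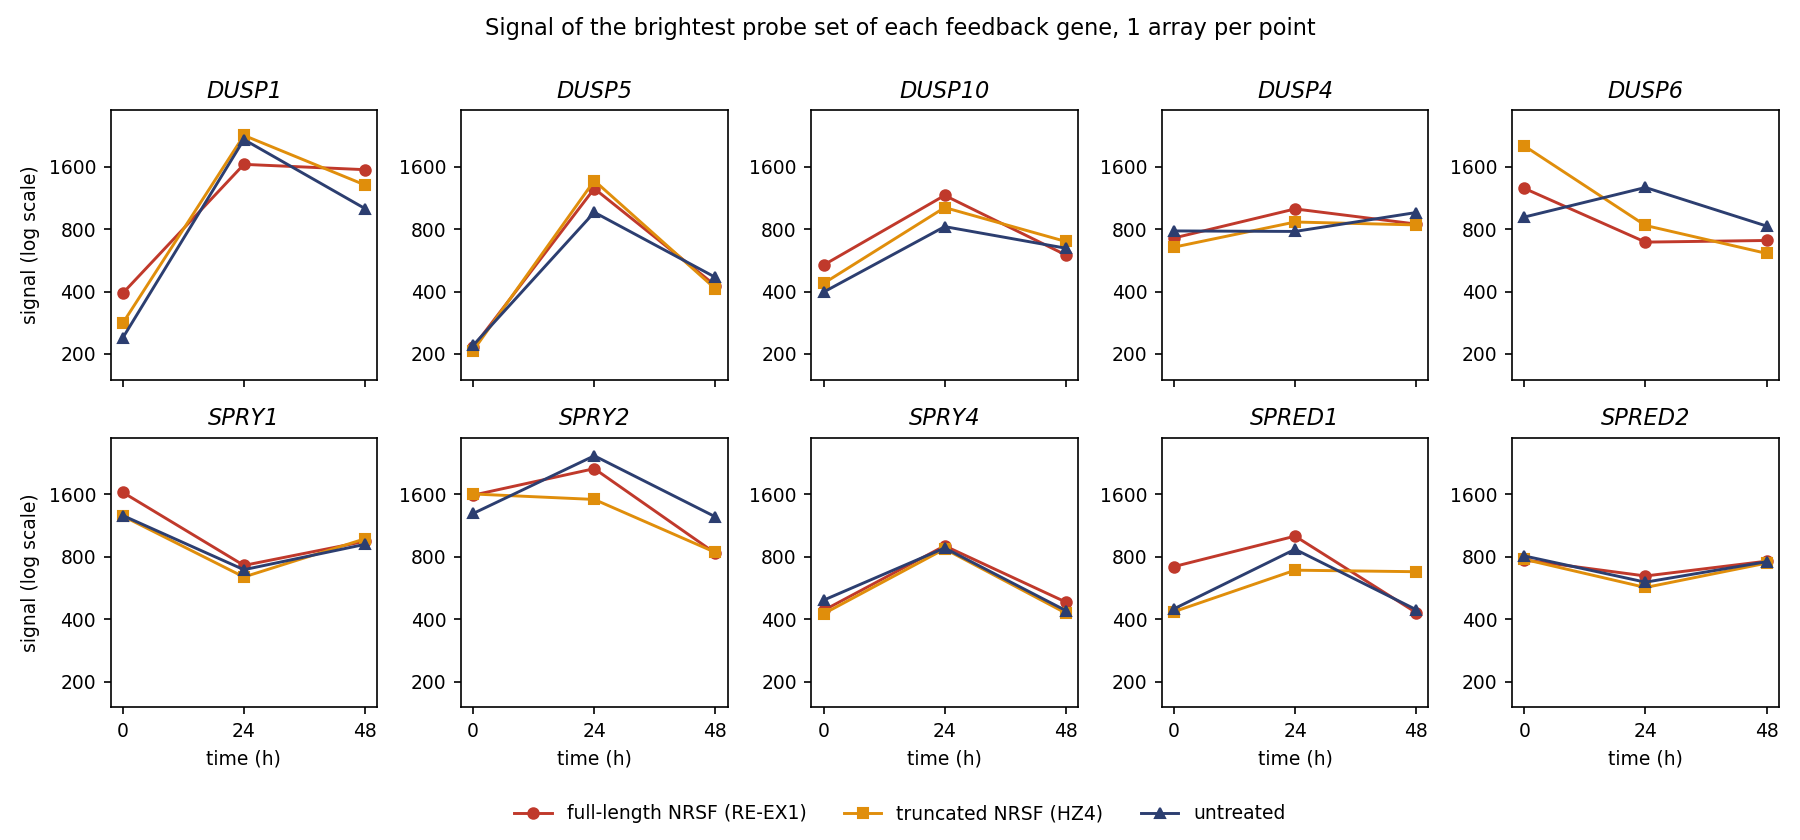
Signal of the brightest probe set (y axis, linear signal on a log scale) of each of the 10 feedback genes at 0, 24 and 48 h (x axis), with 1 array per point and 1 line per series. DUSP1, DUSP5, DUSP10 and SPRY4 peak at 24 h in all 3 series and SPRY1 has its minimum there. The lines of DUSP6 start between 916 and 2019 and cross by 24 h, as the untreated series rises and both construct series fall.

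DUSP1, a phosphatase of p38, JNK and ERK that is induced by growth factors and stress, read 393, 282 and 239 at 0 h in full-length, truncated and untreated cells. At 24 h it read 1645, 2270 and 2168, and at 48 h 1551, 1308 and 1006, in the same order of series. Every 24 h array was above every 48 h array, and every 48 h array above every 0 h array. The change was 2.75 ± 0.19 log2 at 24 h (standard error; limma adjusted p = 9.6e-08) and 2.09 ± 0.19 at 48 h (adjusted p = 8.4e-06). In untreated cells alone, the 24 and 48 h arrays stood 3.18 and 2.07 log2 above the 0 h array. Its other probe sets were dim: 226578_s_at read 7.93 to 101 and rose by 1.93 ± 0.61 at 24 h, and 201044_x_at, whose identifier marks possible cross-hybridization, read 7.23 to 107 and rose by 2.18 ± 0.63. They had 1 and 2 of 9 arrays under the floor, all at 0 h, so the sizes of these changes depend on the floor. In untreated cells the first of these read 35.5 at 24 h and 35.0 at 0 h.

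DUSP5, a nuclear phosphatase specific for ERK, read 215, 208 and 220 at 0 h in full-length, truncated and untreated cells. At 24 h it read 1257, 1374 and 966, and at 48 h 428, 412 and 469. The groups of arrays did not overlap at any of the times. Its 24 h change was 2.47 ± 0.17 log2 (limma adjusted p = 1.0e-07) and its 48 h change 1.02 ± 0.17 (adjusted p = 0.0017). From 24 to 48 h it fell by 1.44 ± 0.17 (adjusted p = 0.00019). DUSP1 stood at −0.66 ± 0.19 between those times, which was not called (adjusted p = 0.065), and the difference between both genes was not tested. The 48 h call of DUSP5 ended without the full-length series (1.04, adjusted p = 0.054).

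DUSP10, a phosphatase of p38 and JNK, read 537, 438 and 398 at 0 h, 1165, 1018 and 824 at 24 h and 601, 698 and 648 at 48 h for the full-length, truncated and untreated cells. All 24 h arrays were above all others. The change was 1.13 ± 0.16 log2 at 24 h (limma adjusted p = 0.00017) and 0.51 ± 0.16 at 48 h (adjusted p = 0.057). Its second probe set, 215501_s_at, rose as well, by 1.35 ± 0.21 at 24 h. From 24 to 48 h DUSP10 fell by 0.62 ± 0.16 (adjusted p = 0.043) on its brightest probe set. Its second probe set fell by 0.99 ± 0.21. The call on the brightest one ended without the truncated 24 h array (−0.61, adjusted p = 0.13) and without any 1 of the full-length (−0.45, 0.31), truncated (−0.65, 0.12) and untreated series (−0.75, 0.094).

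DUSP4, a nuclear phosphatase close to DUSP1, depended on the probe set read. On its brightest, 226034_at, it read 726, 655 and 785 at 0 h, 1003, 867 and 781 at 24 h and 847, 839 and 963 at 48 h for the full-length, truncated and untreated cells. The 0 h and 24 h arrays overlapped there, and the change of 0.29 ± 0.15 log2 was not called (limma adjusted p = 0.23). The other 2 probe sets were called up at both times when all probe sets were tested one by one (26480 tested, 6.62% called up and 6.47% down at 24 h, 3.26% up and 2.96% down at 48 h). At 24 h 204014_at rose by 0.72 ± 0.16 and 204015_s_at by 0.84 ± 0.18, and at 48 h by 0.89 ± 0.16 and 0.71 ± 0.18. With the mean of its probe sets DUSP4 was called up at both times, at 0.62 (adjusted p = 0.015) and 0.63 (0.025). Of all members' probe sets that passed the filter, 10 of 21 were called up at 24 h and 2 down, and 5 up and 4 down at 48 h. From 24 to 48 h 0 were called up and 5 down, against 1.17% and 1.46% of all probe sets.

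**Figure D2:**
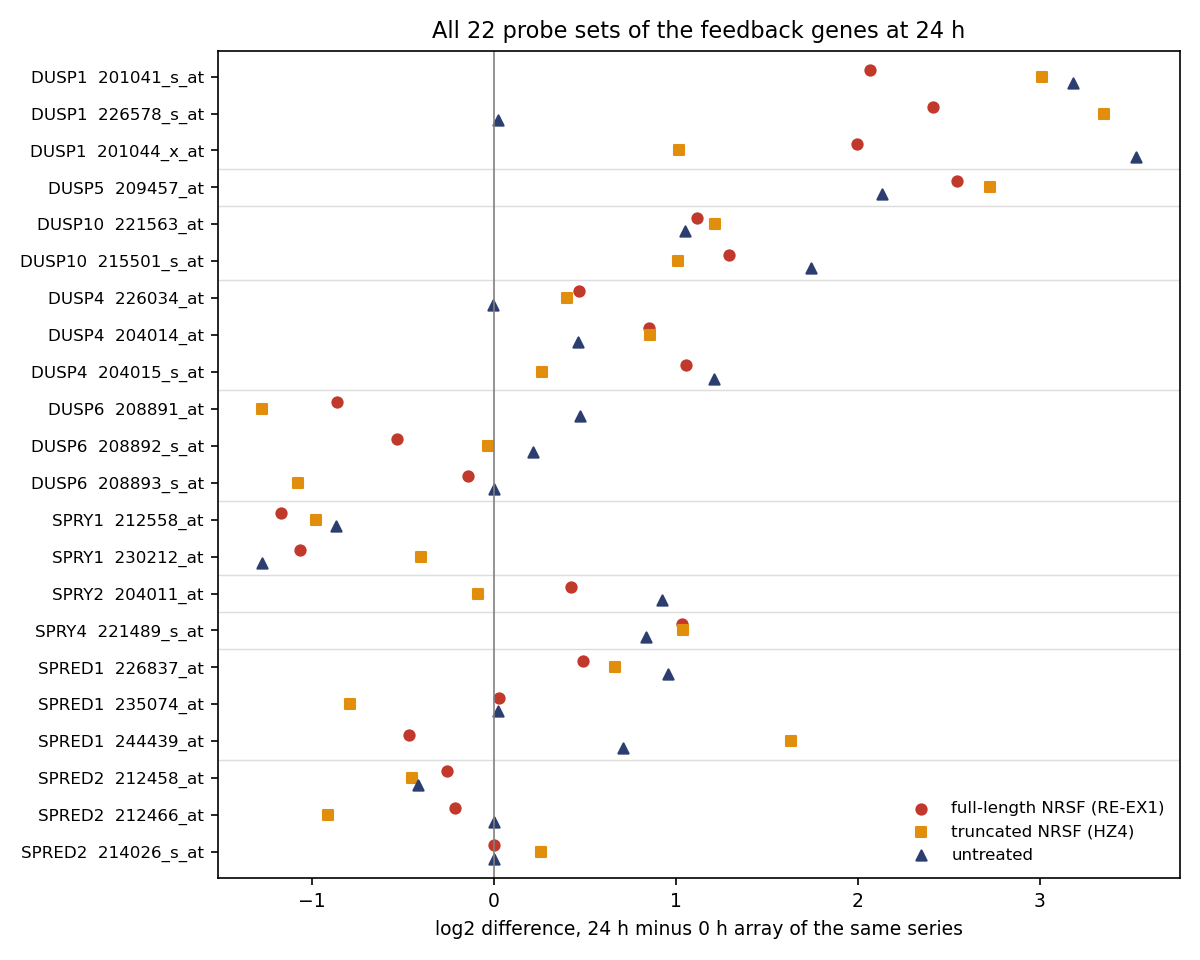
Log2 difference between the 24 h and the 0 h array of the same series (x axis) for all 22 probe sets of the feedback genes (y axis), 1 point per series, after the floor on low signals. The 2 probe sets of DUSP10 lie above 0 in all 3 series and the 2 of SPRY1 below 0, whereas the untreated series lies above the construct series on the brightest probe set of DUSP6, 208891_at.

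DUSP6, the cytoplasmic phosphatase of ERK, was lower at 48 h. On its brightest probe set, 208891_at, it read 1260.0, 2019 and 916 at 0 h, 693, 834 and 1272 at 24 h and 706, 612 and 829 at 48 h for the full-length, truncated and untreated cells. The 0 h and 24 h arrays overlapped: both construct series were lower at 24 h and the untreated series was higher, by 0.47 log2. All 48 h arrays lay below all 0 h arrays. Against its own 0 h array the full-length series stood at −0.84 log2 at 48 h, the truncated at −1.72 and the untreated at −0.14. The change was −0.55 ± 0.25 log2 at 24 h (limma adjusted p = 0.15; −1.07 and called at 0.0041 without the untreated series) and −0.90 ± 0.25 at 48 h (adjusted p = 0.032). The 48 h call ended without the full-length (−0.93, 0.20) or the truncated series (−0.49, 0.26). At 48 h the other probe sets stood at −1.22 ± 0.20 (208893_s_at, adjusted p = 0.0014) and −0.55 ± 0.19 (208892_s_at, adjusted p = 0.10).

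Among the Sprouty genes SPRY1 and SPRY4 moved in opposite directions at 24 h. SPRY4 read 441, 425 and 494 at 0 h, 904, 873 and 882 at 24 h and 484, 428 and 440.1 at 48 h for the full-length, truncated and untreated cells. It rose by 0.97 ± 0.15 log2 at 24 h (limma adjusted p = 0.00040), with all 24 h arrays above all others. It fell by 0.98 ± 0.15 from 24 to 48 h (adjusted p = 0.0015), and its 48 h change of −0.01 ± 0.15 has a 95% interval of −0.33 to 0.31. SPRY1 read 1638, 1259 and 1266 at 0 h, 727, 639 and 693 at 24 h and 950.3, 978 and 919 at 48 h. It fell by 1.01 ± 0.14 at 24 h (adjusted p = 0.00017) and by 0.54 ± 0.14 at 48 h (adjusted p = 0.028), and the arrays of the 3 times did not overlap. Its 48 h call ended without the full-length (−0.41, 0.26) or the untreated series (−0.57, 0.11). The dimmer probe set of SPRY1, 230212_at, also fell at 24 h, by 0.91 ± 0.28.

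SPRY2, which like SPRY4 is induced by ERK, read 1588, 1608 and 1295 at 0 h, 2132, 1514 and 2459 at 24 h and 832, 840.2 and 1247 at 48 h for the full-length, truncated and untreated cells. The 24 h arrays overlapped those at 0 h, and the change of 0.42 ± 0.18 log2 was not called (limma adjusted p = 0.13). Without the truncated series it was called, at 0.68 (adjusted p = 0.035). At 48 h all arrays were below the 0 h arrays, although the untreated array was lower by only 0.05 log2, and SPRY2 fell by 0.64 ± 0.18 (adjusted p = 0.036). That call ended without the full-length (−0.50, 0.32) or the truncated series (−0.49, 0.16). From 24 to 48 h SPRY2 fell by 1.06 ± 0.18 (adjusted p = 0.0031). Without the full-length series that call ended at −0.91 (adjusted p = 0.11).

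SPRED1, the Spred gene mutated in Legius syndrome, read 717, 435 and 449 at 0 h, 1007, 689.5 and 869.9 at 24 h and 430.4, 678 and 445 at 48 h for the full-length, truncated and untreated cells. It was higher at 24 h in each series, but the arrays of both times overlapped. It rose by 0.70 ± 0.21 log2 at 24 h (limma adjusted p = 0.034), and this call ended without the full-length (0.81, adjusted p = 0.072) or the untreated series (0.58, 0.19) and with the mean of its 3 probe sets (0.36, 0.25). The call rests on the brightest probe set. At 24 h 235074_at stood at −0.25 ± 0.28 and 244439_at at 0.63 ± 0.33, and neither was called. At 48 h SPRED1 stood at −0.04 ± 0.21, lower by 0.74 in the full-length series and higher by 0.64 in the truncated series. SPRED2 read 773, 778 and 808 at 0 h, 646, 569 and 603 at 24 h and 762, 746 and 758 at 48 h. Its 24 h arrays all lay below the others, and the change of −0.38 ± 0.14 was not called (adjusted p = 0.085). Its other 2 probe sets, 212466_at and 214026_s_at, were dim, with 3 and 6 of 9 arrays at the floor. At 24 h 212466_at stood at −0.38 ± 0.79 and was not called, and 214026_s_at was the only member probe set that did not pass the filter.

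**Figure D3:**
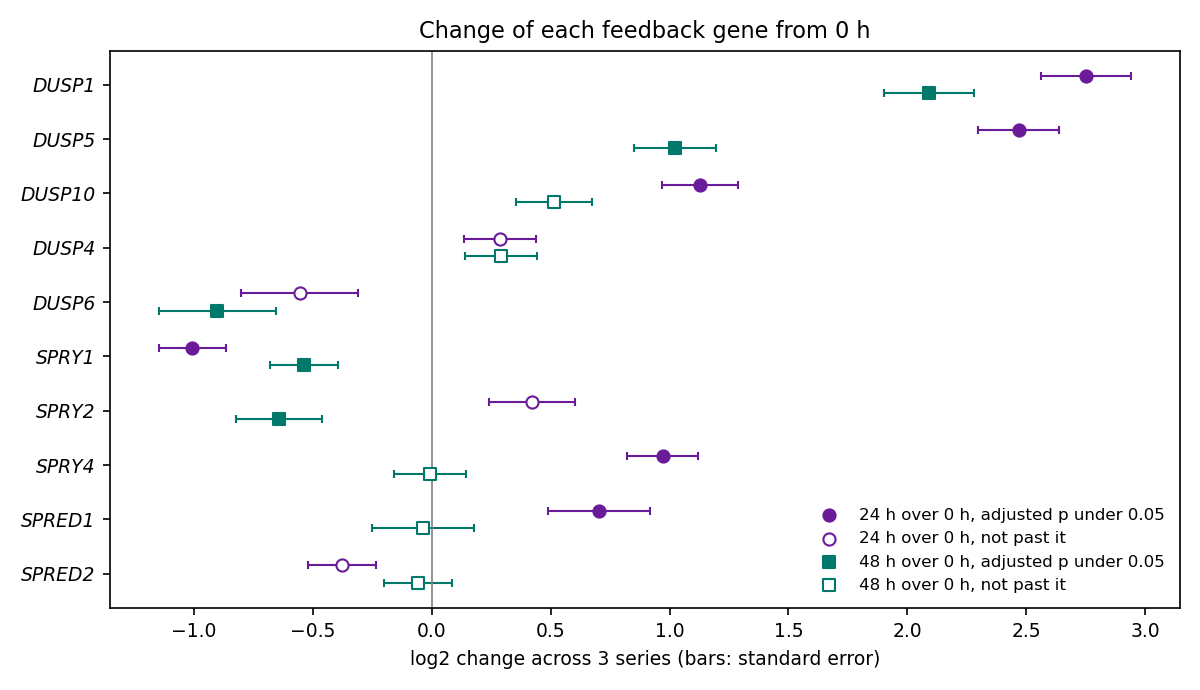
Log2 change of each feedback gene at 24 h (circles) and 48 h (squares) over 0 h across the 3 series (x axis), with standard errors as bars. Filled symbols passed an adjusted p of 0.05. DUSP1 and DUSP5 stand at 2.75 and 2.47 at 24 h and at 2.09 and 1.02 at 48 h, and DUSP6, SPRY1 and SPRY2 are called below 0 at 48 h.

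By 48 h the set had split. DUSP1 and DUSP5 were still up, and DUSP6, SPRY1 and SPRY2 were down, which makes 2 members up and 3 down, where 4.5% and 3.88% of all genes were called and 8.38% in either direction. The members' median was −0.02 log2, against −0.01 for all genes. All 48 h arrays lay above all 0 h arrays for 4 members and below for 4, against 13.6% and 14.2% of all genes. Between 24 and 48 h, 4 members fell (DUSP5, DUSP10, SPRY2 and SPRY4) and 0 rose, where 1.78% and 1.72% of all genes were called and 3.5% in either direction. At an unadjusted p under 0.05 there were 6 members at 48 h over 0 h and 8 at 48 h over 24 h, against 22.7% and 17.9% of all genes. The median was −0.64 there, against 0.01 for all genes. All 48 h arrays lay above all 24 h arrays for 2 members and below for 6, against 10.3% and 10.5% of all genes. Without the truncated 24 h array, 2 rose and 3 fell at 48 h over 0 h, and 3 fell and 0 rose from 24 to 48 h. Without limma's variance trend none of the calls at 48 h over 0 h or over 24 h was kept. Without the full-length series 1 of the calls at 48 h over 0 h was kept, that of DUSP1, as DUSP5 then had an adjusted p of 0.054. Markers of other cell types moved at 48 h over 0 h in 2 of 5 kept cases. KRT18, read by a probe set with possible cross-hybridization, rose by 0.90 ± 0.15 log2 and PTPRC by 1.05 ± 0.29. The summed epithelial signal was 5643 to 6308 at 48 h, against 2540 to 3846 at 0 h, and the summed blood signal 190.1 to 205 against 104 to 137. Most of the epithelial sum was KRT18, at 5432, 6068 and 6076 at 48 h in full-length, truncated and untreated cells. KRT8, the other kept epithelial marker, stood at 0.06 ± 0.27 log2 (limma adjusted p = 0.93), also on a probe set with possible cross-hybridization. Most of the blood sum at 48 h was PTPRC, at 135, 175 and 174. CDH1 and CD3E were at the floor on 6 and 5 of 9 arrays. Of the mesenchymal markers 1 rose and 2 fell, with a summed signal of 21957 to 26037 at 48 h. The part of these changes in the members' values was not tested.

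Each series against its own 0 h array has no replicate check. In the full-length series 4 members were 2-fold or more higher at 24 h and 1 was lower. In the truncated series these were 4 and 1, and in the untreated series 3 and 0. Of all genes 9.67% and 9.94%, 15.3% and 11.8%, and 8.81% and 9.82% passed 2-fold higher and lower in those series. At 48 h 1 member was 2-fold higher and 0 lower in the full-length series (7.99% and 10.6% of all genes), 1 and 1 in the truncated series (9.67% and 9.46%), and 2 and 0 in the untreated series (8.44% and 9.29%). Before any exposure time the 0 h arrays already differed for some members. DUSP6 was higher by 1.14 log2 on the truncated than on the untreated 0 h array on its brightest probe set. DUSP1 and SPRED1 were higher by 0.72 and 0.68 on the full-length than on the untreated array. The median absolute differences over all genes were 0.30 and 0.33 for these pairs. The 0 h gap of DUSP6 depended on the probe set. For the full-length, truncated and untreated cells 208892_s_at read 1121, 807 and 698 at 0 h, and 208893_s_at read 495, 871 and 543.

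Whether a construct series changed differently from the untreated series was the question of the exposure model, in which 24 and 48 h count as 2 readings of 1 effect. Of the 10 members 0 were called for full-length NRSF over untreated, 0 for truncated NRSF over untreated and 0 for full-length over truncated NRSF, where limma called 0.00725%, 0.0362% and 0.0145% of all genes. At an unadjusted p under 0.05 there were 2, 2 and 0 members, against 4.19%, 7.65% and 6.18% of all genes. Those 2 were DUSP6 and SPRY2 in both comparisons, which share the untreated arrays. Net of untreated, the full-length series had DUSP6 at −1.34 log2 (24 h) and −0.69 (48 h), and the truncated series at −1.75 and −1.58. The model gave −1.01 ± 0.33 (95% interval −1.71 to −0.32; adjusted p = 1.0) and −1.66 ± 0.33 (−2.36 to −0.97; adjusted p = 0.094). These values subtract the 0 h difference of DUSP6 from untreated. On its brightest probe set that was 0.46 log2 for the full-length and 1.14 for the truncated series. At the same hour DUSP6 read 693, 834 and 1272 at 24 h for the full-length, truncated and untreated cells. At 48 h it read 706, 612 and 829. The difference at the same hour was not tested. With the mean of the 3 DUSP6 probe sets the model gave −0.70 and −0.96 for full-length and truncated NRSF (adjusted p = 1.0 and 0.65).

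For SPRY2 the differences net of untreated were −0.50 log2 (24 h) and −0.88 (48 h) in the full-length series and −1.01 and −0.88 in the truncated series. The model gave −0.69 ± 0.31 (limma adjusted p = 1.0) and −0.95 ± 0.31 (adjusted p = 0.38). These values subtract 0 h differences from untreated of 0.29 and 0.31 log2 for the full-length and truncated series. The median absolute 0 h differences over all genes were 0.33 and 0.30 for these pairs. For DUSP5 the interval was −0.63 to 0.94 for full-length and −0.54 to 1.03 for truncated NRSF, and for SPRY4 −0.44 to 0.94 and −0.50 to 0.88. These intervals span both directions and do not show that the series were alike. Between full-length and truncated NRSF, SPRED1 had the largest difference of the 10 members in size, at −0.78 ± 0.42 (adjusted p = 0.85), and DUSP6 stood at 0.65 ± 0.33 (0.83).

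**Figure D4:**
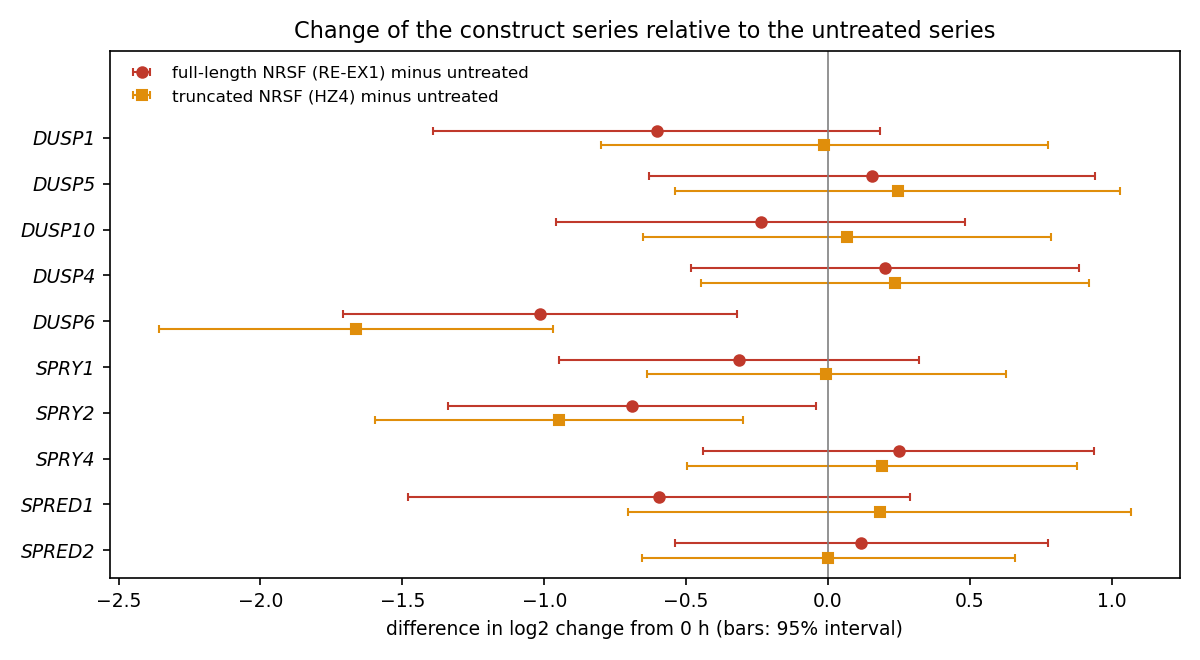
Difference between a construct series and the untreated series in log2 change from 0 h (x axis), with 95% intervals as bars, for each feedback gene. The intervals of DUSP6 and SPRY2 lie below 0 for both constructs, while none of the 10 genes passed the test after adjustment over all genes.

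Related genes show what surrounded the feedback genes. Of 17 transcriptional targets of ERK that passed the filter 10 rose and 1 fell at 24 h, with a median of 0.90 log2. Of all genes 8.04% were called up and 8.2% down at that time. EGR1 and FOS, immediate early transcription factors, rose by 2.24 ± 0.30 and 2.17 ± 0.31, MAFF, a small MAF factor, by 1.65 ± 0.31 and FOSL1, an AP-1 subunit, by 1.56 ± 0.20 (limma adjusted p = 0.00011, 0.00021, 0.0017 and 5.8e-05). ETV1, an ETS factor, fell by 0.67 ± 0.20 (adjusted p = 0.030). Its relatives ETV4 and ETV5 stood at −0.36 ± 0.24 and 0.26 ± 0.17 without passing the test. All of these ETV genes were named after their values were seen, and ERK activity was not measured. From 24 to 48 h 6 of the 17 fell and 0 rose, against 1.78% and 1.72% of all genes. Among those that fell were EGR1 at −2.77 ± 0.30 and FOS at −2.09 ± 0.31. At 48 h over 0 h 3 of the 17 were up and 1 down, against 4.5% and 3.88% of all genes.

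Of 14 genes of the p38 and JNK cascade 3 rose and 1 fell at 24 h, against 8.04% and 8.2% of all genes. Their median was 0.29 log2. GADD45B and GADD45A, stress-induced activators of the cascade, rose by 2.10 ± 0.33 and 1.48 ± 0.14 (limma adjusted p = 0.00041 and 4.4e-06), and MAP2K6, a kinase of p38, fell by 1.06 ± 0.27 (0.013). The third gene called up was MAPK12, a p38 kinase (adjusted p = 0.0069). It read 38.9, 149 and 62.5 at 24 h and 8.12, 35.9 and 5.84 at 0 h for the full-length, truncated and untreated cells. As 2 of these 0 h values are under the floor of 8.27, the size of its change depends on the floor and is not given. Of 13 genes of the RAS to ERK cascade itself 2 rose and 0 fell, with a median of −0.17. Of all genes 8.04% rose, 8.2% fell and 16.2% were called in either direction. The 2 were the adaptor gene GRB2 and the exchange factor gene SOS1, at 0.53 ± 0.16 and 0.71 ± 0.20 (adjusted p = 0.031 and 0.020). Of 10 other negative regulators 2 rose and 1 fell, against the same shares of all genes. ERRFI1, a feedback inhibitor of EGFR, and LRIG1, an inhibitor of ERBB receptors, rose by 1.38 ± 0.13 and 0.91 ± 0.24 (3.5e-06 and 0.017). SOCS3, an inhibitor of cytokine receptors, was called down at −1.20 ± 0.32 (0.016), but was not lower in each series. It read 228, 121 and 474 at 24 h and 557, 645 and 446 at 0 h for the full-length, truncated and untreated cells. The other DUSP and Spred genes DUSP2, DUSP7, DUSP8, DUSP9, DUSP16 and SPRED3 had 0 of 6 calls at 24 h, against 16.2% of all genes. At an unadjusted p under 0.05 there were 3, against 28.1% of all genes. The median of the 6 was 0.56, and DUSP8 stood at 1.04 ± 0.41 (adjusted p = 0.098). DUSP2 read 75.5, 35.9 and 44.8 at 24 h and 56.2, 17.4 and 3.53 at 0 h for the full-length, truncated and untreated cells, the last of these under the floor, so no size is given for its change. SPRY3 was too dim for the filter. Listed genes with no usable probe set were not analysed here.

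**Figure D5:**
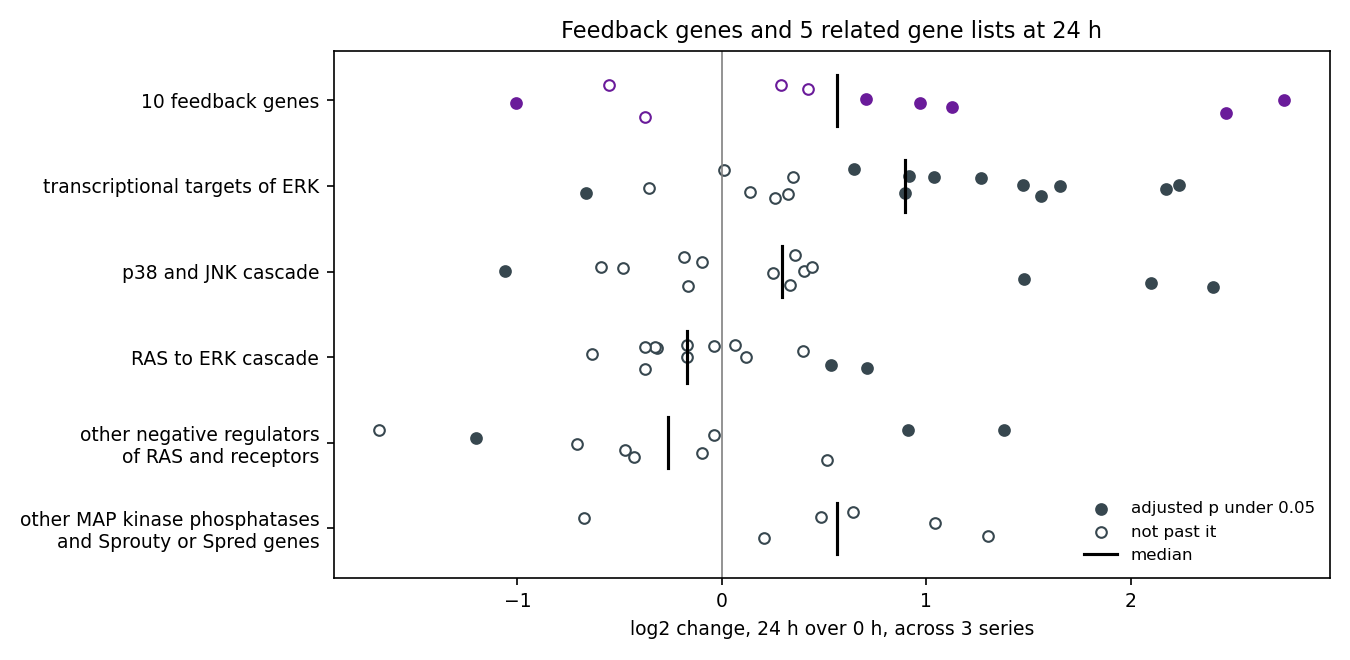
Log2 change at 24 h over 0 h across the 3 series (x axis) for the 10 feedback genes and 5 related lists (y axis), 1 point per gene, filled where the adjusted p was under 0.05, with the list median as a black bar. The ERK targets have a median of 0.90 and the feedback genes of 0.56, and DUSP1 and DUSP5 are the rightmost points of their row.

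Genes whose log2 signal ran most like that of a member over the 9 arrays were looked up among 6103 genes that varied by at least 1 log2 and never reached the floor. For DUSP1 they were MXD1 and RNF6 (Pearson r = 0.99 and 0.98), for DUSP5 CDS2 and ZBTB43 (0.99 and 0.99), for DUSP10 RBM19 and PRMT3 (0.98 and 0.98) and for DUSP4 USP36 and FAM43A (0.97 and 0.96). SPRY1 was nearest to CDC7, a kinase gene of DNA replication, and VCAM1, an adhesion receptor gene (0.99 and 0.99), and SPRY4 to SNX18 and SERTAD2 (0.98 and 0.98). DUSP6 was nearest to COG7 and MAN2A1 (0.96 and 0.94), SPRY2 to DTWD1 and ZNF443 (0.96 and 0.94), SPRED2 to RANBP1 and SALL2 (0.99 and 0.97), and SPRED1 to CCNJ and TMSB15B-AS1 (0.92 and 0.90). The 9 arrays are 3 series at the same 3 times and so are not independent, and these names are a description.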

How the data were processed

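RNA extracted with Trizol was labelled as biotinylated cRNA, per the labels' protocols. The deposited values are linear signal intensities from GCOS (per the submitters' processing notes), with a version and settings not given in the sources. The mean of each array without its lowest and highest 2% of values was 150.0, so the authors had scaled the arrays, and this was kept.

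Signals were floored at the 25th percentile of all values (8.27) and log2 was taken. Probe sets were named through the platform annotation, updated by Entrez ID: 41091 named 1 gene, 1801 several and 11721 none, besides 62 controls. The brightest probe set stood for each gene, and genes with a mean log2 above 4.20 (the 40th percentile) were kept. Tests used limma 3.58.1 in R 4.3.3 (data.table, version 1.17.8), lmFit and eBayes with a variance trend, two-sided. The time model held series and time (4 residual degrees of freedom), and the exposure model added a term per construct at 24 and 48 h (2 residual degrees of freedom, which are not replicate cultures). On simulated data with independent noise, the time model was tried for 24 h over 0 h and the exposure model for full-length over untreated. The other comparisons and the fit of single probe sets were not tried in this way. Alternatives changed the floor, filter, normalization, joining of probe sets, variance trend, series term and arrays.

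Members and lists were chosen with earlier results of these data known, and DUSP1 had been reported at 48 h. Named are all members, their probe sets other than the brightest, up to 4 called genes of each list with the largest 24 h change, and the 2 nearest genes per member. ETV1, ETV4, ETV5 and the genes of the list of other DUSP, Sprouty and Spred genes were named after their values were seen. Precision is limited by the number of arrays.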

Additional observations from a re-analysis of the deposited data

Results flagged for a closer look

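The 48 h change differed from the 24 h change, by limma's test of 48 h over 24 h across the 3 series (n = 3 arrays per time), for 4 feedback genes: DUSP5 by −1.44 log2 (adjusted p = 0.00019), SPRY2 by −1.06 (adjusted p = 0.0031), SPRY4 by −0.98 (adjusted p = 0.0015) and DUSP10 by −0.62 (adjusted p = 0.043). Each was lower at 48 h than at 24 h in 3 of 3 series. No group held enough arrays to look for single arrays that stand apart in a gene.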

How the results depend on the processing

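Over 11 alternatives of the time model, DUSP1, DUSP5, DUSP10, SPRY1 and SPRY4 kept their direction and their 24 h call in each, with ranges of 2.29 to 3.10, 2.33 to 2.64, 1.08 to 1.24, −1.07 to −0.92 and 0.94 to 1.04 log2. SPRED1 kept its 24 h call in 6. Members called at 48 h over 0 h numbered 2 without the filter on dim genes and 0 without the variance trend, instead of 5, and 1 to 4 when a series was left out. Members called at 48 h over 24 h numbered 0 under both of the first settings, instead of 4. Without the filter 19775 genes entered both the test and the variance trend, and the reason for the lost calls was not tested. For DUSP5 and SPRY4 the adjusted p from 24 to 48 h was 0.050 each without the filter. Members 2-fold apart with full-length NRSF at 48 h numbered 2 with quantile normalization and 3 when probe sets of a gene were averaged, instead of 1; both settings were chosen after seeing the data. Small uncalled values turned sign: SPRY4 at 48 h over 0 h was 0.00035 with quantile normalization and −0.078 to 0.073 when a series was left out, DUSP4 from 24 to 48 h was −0.022 and −0.14 to 0.13, and SPRED1 at 48 h over 0 h was −0.38 to 0.31. Of all genes, 2242 were called at 24 h over 0 h, against 1264 without the filter, 542 without the trend, 1213 with averaged probe sets, 1386 without the truncated 24 h array and 890 to 1465 without a series. At 48 h over 0 h these were 1156, against 394, 18 and 477 under the first 3 settings and 212 to 660 without a series, and at 48 h over 24 h 483, against 0, 0 and 175, 201 without the truncated 24 h array and 87 to 195 without a series. Across single genes 317 of 366 recomputed values kept direction and side of the threshold, 37 lost a call, 7 gained one and 5 turned sign; the cause was not tested. The exposure model called 0 members in each of 6 alternatives. Times were compared within series through the series term. Without it 6, 4 and 3 members were called at 24 h over 0 h, 48 h over 0 h and 48 h over 24 h.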
